A study of Xenopus tropicalis with 4 samples.

Results

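Chromatin modifying enzymes and readers were examined in epidermal explants of the frog Xenopus tropicalis in which both SUV4-20H enzymes had been targeted. The genes were those whose symbol in the study's own gene lists begins with one of the stems kmt, suv, kdm, prdm, setd, smyd, hdac, sirt, kat, dnmt, tet, ezh, suz12, eed, cbx, chd, smarc, phf, brd or ing. The 52 gene identifiers described here have 51 different symbols, of 6622 identifiers that could be paired with a symbol and of 34178 in the count files. The symbol chd9 stands for 2 identifiers, and no gene of the sirt stem was found. Animal caps (ACs) are explants of the prospective ectoderm of the blastula, which differentiate into epidermis in culture. H1H2Mo caps came from embryos injected with translation-blocking morpholinos against suv4-20h1 and suv4-20h2 together, and CoMo caps came from embryos injected with the standard control morpholino. RNA was taken at the neurula stage NF16 from pools of caps, with 2 numbered replicates in each condition. The paper describes its replicates as biological and reports more of them than the 2 per condition used here. The embryos carried no genetic change, and a morpholino of this kind acts on translation, so the mRNA of its target need not fall.

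As background, lysine 20 of histone H4 is monomethylated by SETD8 (also called KMT5A), and SUV4-20H1 and SUV4-20H2 (KMT5B and KMT5C) carry the mark on to the di- and trimethylated state. H4K20me1 is found in cycling cells and during chromosome condensation, while H4K20me3 is a mark of repressed and repeat-rich chromatin. PHF8 is a Jumonji demethylase that removes H4K20me1 and repressive methyl marks of histone H3. The comparison asks which other writers, erasers, readers and remodellers of chromatin had a changed mRNA level when both SUV4-20H enzymes were targeted.

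The libraries held 17125387 to 25940076 read pairs on genes in H1H2Mo caps and 17054150 to 47407319 in CoMo caps, counted on the strand that the directional kit marks as sense. The log2 ratio between replicates had an SD of 0.82 in H1H2Mo caps and 0.59 in CoMo caps, taken over 12536 genes averaging 50 counts or more. The epidermal character of the caps was checked with 7 epidermal genes. Their summed level was 3317 and 2502 CPM (read counts scaled to the size of the library) in the H1H2Mo libraries. In the CoMo libraries it was 3678 and 4553 CPM. Most of the sum came from epcam (1779 and 1156 CPM in H1H2Mo caps) and cdh1 (1087 and 766 CPM), so it says little about the other genes. krt12, tp63 and grhl2, named through the study's list for H1H2Mo against CoMo, were 8.2-fold, 4.0-fold and 3.0-fold lower in H1H2Mo caps. Both H1H2Mo libraries lay below both CoMo libraries for 6 of the 7 genes (85.7%), against 30.7% of all genes tested. The groups overlapped for epcam. The summed level of 3 myeloid genes was 0.108 and 0.279 CPM in H1H2Mo caps and 2.19 and 0.569 CPM in CoMo caps. CPM values here are scaled by edgeR's TMM factors. They compare a gene between libraries, not genes of different length with each other.

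All 52 genes passed the filter of at least 1 read in 75% of the libraries. A gene is called when its p in the quasi-likelihood test of edgeR, adjusted by the Benjamini-Hochberg method over all 19372 genes tested, is under 0.05. The RNA is from whole caps, in which fewer cells of a type and less RNA per cell cannot be told apart. In all, 12 of the 52 chromatin genes (23.1%) were called, against 16.5% of all genes tested. Of these, 8 were higher in H1H2Mo than in CoMo (background 5.83% of all genes) and 4 were lower (background 10.7%). The genes that rose were kmt5c, dnmt1, setd1a, kmt2b, setd5, kat6a, smarca5 and chd7. The genes that fell were tet2, tet3, kat2b and hdac9. The median log2 fold change was 0.45 over the chromatin genes, with quartiles of -0.16 and 0.98, and 0.05 over all genes tested. Both H1H2Mo libraries lay above both CoMo libraries for 22 chromatin genes (42.3%), against 28.8% of all genes. Both lay below for 11 (21.2%), against 30.7%, and the groups overlapped for 19.

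How a gene came by its symbol bears on these counts, because the lists that supplied the symbols were ranked by small p-values. Of the 52 genes, 9 were named through the list for H1H2Mo against CoMo, which rests on this comparison, and all 9 were called. Of these, 5 were higher and 4 lower, where the background for that list was 98.9% called, 27.9% higher and 71% lower. Another 25 were named through lists in which the same morpholinos had been combined with PHF8 mRNA in other libraries. Of these 25, 3 (12%) were called, against a background of 19%, and all 3 (setd1a, kmt2b and kat6a) were higher, where the background for that direction was 10.5%. The last 18 were named only through lists for PHF8 or LacZ mRNA against CoMo. None of these 18 was called by edgeR, with a background of 7.47%. At an unadjusted p under 0.05 there were 2 of them, and DESeq2 called 1. Outside the first list, then, 3 of 43 chromatin genes (6.98%) were called, against 12.6% of all named genes outside it.

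**Figure D1:**
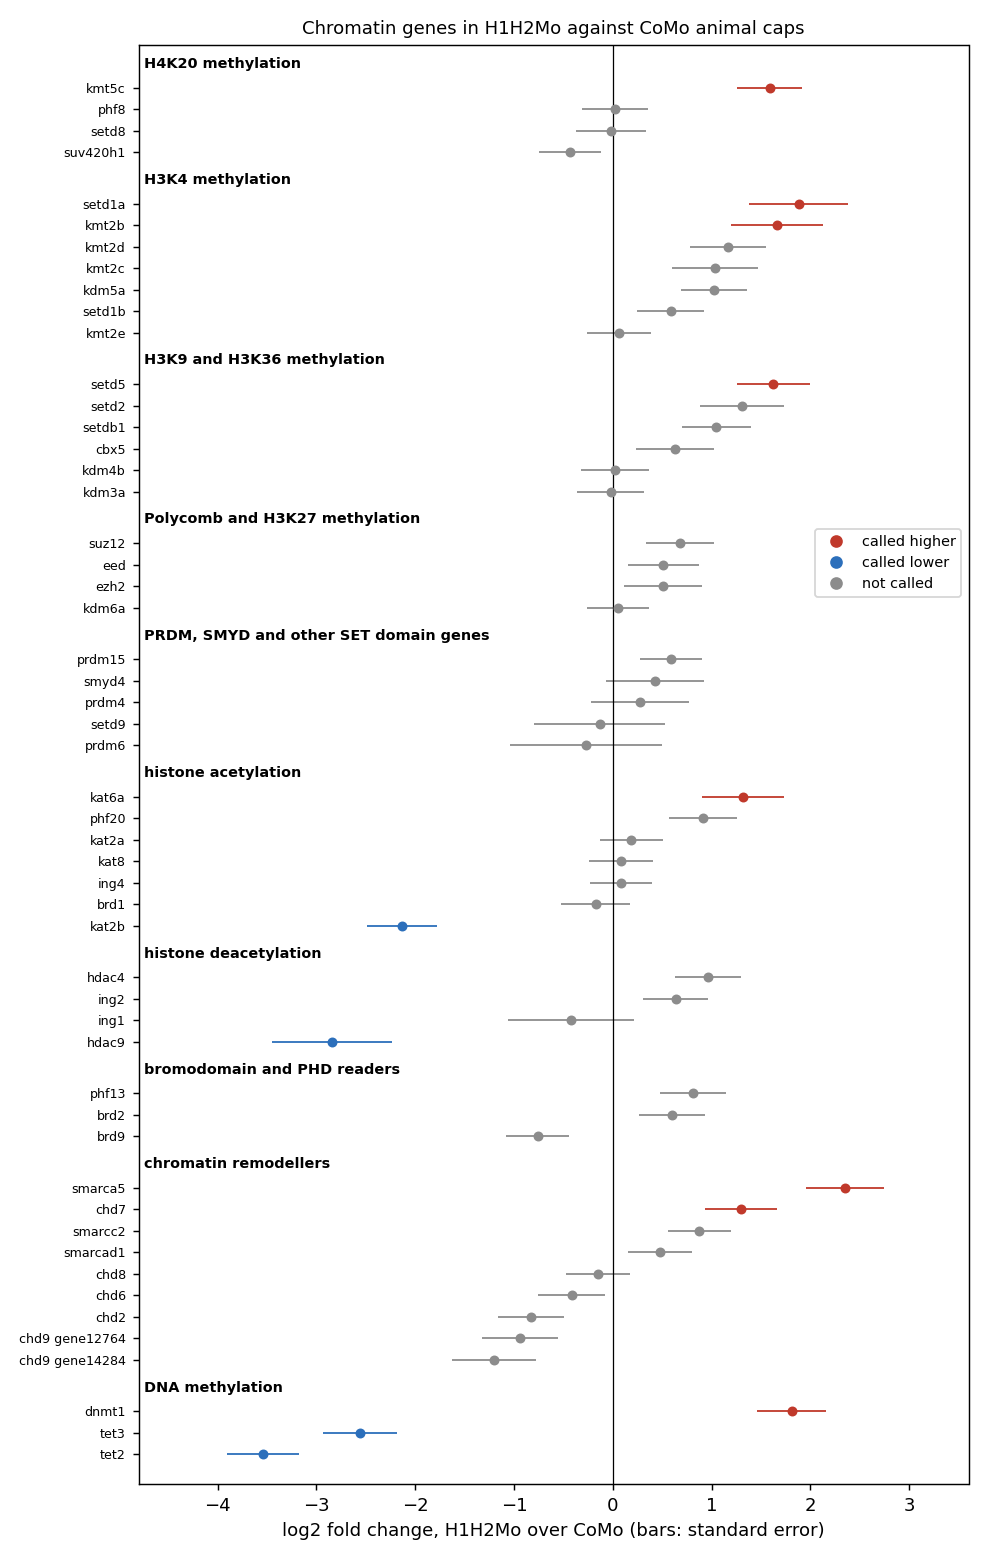
Log2 fold change (H1H2Mo over CoMo) of the 52 chromatin genes, grouped by role, with standard errors as bars. The 8 genes called higher are red, the 4 called lower are blue and the 40 not called are grey, and the lowest value is that of tet2 (-3.54) and the highest that of smarca5 (2.35).

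Of the transcripts of the morpholino targets, 1 was called higher and the other was not called. kmt5c had its symbol from the list for this comparison, where 98.9% of genes were called, so its call was close to given. suv420h1 was named only through the lists for PHF8 or LacZ mRNA against CoMo, where 7.47% of genes were called. kmt5c, which encodes SUV4-20H2 (gene19824, chromosome 7), had 147.4 and 171.5 CPM in the H1H2Mo libraries, against 47.7 and 58.2 CPM in the CoMo libraries. The groups did not overlap, and kmt5c was 3.01-fold higher in H1H2Mo (log2 fold change 1.59, standard error 0.33, edgeR adjusted p = 0.0055). suv420h1, which encodes SUV4-20H1 (gene4955, chromosome 4), had 89.3 and 82.4 CPM in H1H2Mo caps and 109.2 and 123.2 CPM in CoMo caps. Its libraries did not overlap either, but the log2 fold change of -0.44 (standard error 0.31, edgeR adjusted p = 0.39) did not pass the test, with a 95% confidence interval of -1.12 to 0.25. The mRNA levels give no measure of the proteins.

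Within each library, the reads of kmt5c were set against those of suv420h1, a ratio that does not depend on the scaling between libraries. It was 1.65 and 2.08 in the H1H2Mo libraries, against 0.437 and 0.472 in the CoMo libraries. The ratio was thus 4.08-fold higher in H1H2Mo, a log2 difference of 2.03 with a pooled SD between replicates of 0.18. An exact two-sided permutation test over the samples gave p = 0.333, which is the smallest p that 2 libraries against 2 can give.

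Neither of the other H4K20 enzymes was called. setd8, the monomethyltransferase, had 51.4 and 80.4 CPM in H1H2Mo caps and 81.4 and 52.3 CPM in CoMo caps. The spread between its replicates was larger than the difference between conditions, and the log2 fold change was -0.02 (standard error 0.36, edgeR adjusted p = 0.98, 95% confidence interval -0.79 to 0.75). phf8 had 118.9 and 158.2 CPM in H1H2Mo caps and 122.3 and 150.4 CPM in CoMo caps, a log2 fold change of 0.02 (standard error 0.33, edgeR adjusted p = 0.97, 95% confidence interval -0.70 to 0.74). These intervals leave room for changes of more than 1.5-fold in either direction. Leaving out either CoMo library ended the call of kmt5c, as it did for most of all genes called higher. The log2 fold change of kmt5c was then 1.47 without replicate 1 and 1.75 without replicate 2.

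**Figure D2:**
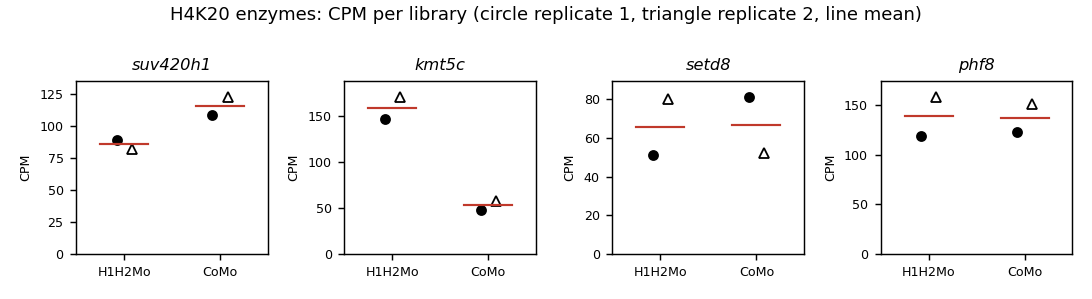
CPM of the 4 genes of H4K20 methylation in each library, with H1H2Mo left of CoMo, circles for replicate 1, triangles for replicate 2 and a line at the mean. kmt5c lies at 147.4 and 171.5 CPM in H1H2Mo caps and at 47.7 and 58.2 CPM in CoMo caps, while the groups overlap for setd8 and phf8.

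All 3 genes of DNA methylation were called, against 16.5% of all genes. All 3 had their symbol from the list for this comparison, where 98.9% of genes were called. TET enzymes oxidize 5-methylcytosine, the first step of active demethylation, and DNMT1 copies methylation onto newly replicated DNA. tet2 (gene24328, chromosome 1) had 12.2 and 8.31 CPM in H1H2Mo caps, against 117.6 and 121.3 CPM in CoMo caps. It was 11.6-fold lower in H1H2Mo (log2 fold change -3.54, standard error 0.36, edgeR adjusted p = 7.1e-05), the largest change among the chromatin genes. tet3 (gene4634, chromosome 3) had 30.5 and 18.0 CPM in H1H2Mo caps and 161.3 and 125.1 CPM in CoMo caps, and was 5.89-fold lower in H1H2Mo (log2 fold change -2.56, standard error 0.37, edgeR adjusted p = 0.00059). Both calls held when any of the 4 libraries was left out. Within a library, tet2 had 0.399 and 0.461 reads per tet3 read in H1H2Mo caps, against 0.729 and 0.970 in CoMo caps, so that the ratio was lower in both H1H2Mo libraries than in either CoMo library. For the difference of this ratio the exact two-sided permutation test gave p = 0.333, again the smallest possible.

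dnmt1 (gene303, chromosome 3) moved the other way. It had 179.6 and 272.7 CPM in H1H2Mo caps and 62.9 and 65.9 CPM in CoMo caps, and was 3.51-fold higher in H1H2Mo (log2 fold change 1.81, standard error 0.35, edgeR adjusted p = 0.0038). Without CoMo replicate 1 its edgeR adjusted p was 0.14 and without CoMo replicate 2 it was 0.11. DNMT1 is known for its rise in S phase, so genes of cell division are given beside it. Of 14 such genes, 4 were called higher in H1H2Mo (28.6%, against 5.83% of all genes) and none lower (10.7% of all genes). The source of the symbol bears on this count too. bub1 and ccnb2 had theirs from the list for this comparison, where 27.9% of genes were called higher. rrm1 and aurka had theirs from the lists that combined the morpholinos with PHF8 mRNA, where 10.5% were. Another 4 that were not called had negative log2 fold changes (tyms, plk1, ccnb3 and cdc20). Of the genes of DNA replication, rrm1 was called and pcna, mcm2, mcm7 and tyms were not. The 3 with the smallest p were the checkpoint kinase bub1 (log2 fold change 1.70, edgeR adjusted p = 0.0045), cyclin ccnb2 (1.61, 0.0088) and the ribonucleotide reductase subunit rrm1 (1.26, 0.024). Their calls too were lost without either CoMo library. The summed level of the 14 genes was 2840 and 4107 CPM in H1H2Mo caps and 1811 and 2329 CPM in CoMo caps. mcm7 made up the largest part, with 925 and 1357 CPM in H1H2Mo caps and 369 and 717 CPM in CoMo caps. H1H2Mo replicate 2 was highest both for this sum and for dnmt1. Of the called genes, bub1, ccnb2 and rrm1 were also highest there, but aurka had 373 CPM in H1H2Mo replicate 1 and 295 CPM in replicate 2. The part of cell division in the level of dnmt1 was not tested.

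Genes of H3K4 methylation, a mark of active promoters and enhancers, had a positive log2 fold change in all 7 cases, as had 9993 of all 19372 genes. Of the 7, 2 were called (28.6%, against 16.5% of all genes). SETD1A is the catalytic subunit of a COMPASS complex that methylates promoters. setd1a (gene28281, chromosome 9) had 83.2 and 23.5 CPM in H1H2Mo caps, against 11.9 and 17.0 CPM in CoMo caps, a log2 fold change of 1.88 (standard error 0.50, edgeR adjusted p = 0.021). The related methyltransferase gene kmt2b (gene1664) had 171.7 and 65.8 CPM in H1H2Mo caps and 24.9 and 50.03 CPM in CoMo caps, a log2 fold change of 1.66 (standard error 0.47, edgeR adjusted p = 0.028). For both genes H1H2Mo replicate 1 was far above replicate 2. Without it neither was called, with log2 fold changes of 0.71 for setd1a (edgeR adjusted p = 0.24) and 0.82 for kmt2b (edgeR adjusted p = 0.16). Nor were they called without CoMo replicate 1 (edgeR adjusted p = 0.29 and 0.36) or CoMo replicate 2 (0.17 and 0.12).

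The other genes of this group were not called by edgeR. kmt2d and kmt2c encode the large enhancer methyltransferases of the MLL3/MLL4 complexes. kmt2d had 439.7 and 240.3 CPM in H1H2Mo caps and 134.3 and 168.8 CPM in CoMo caps (log2 fold change 1.17, edgeR adjusted p = 0.054). Without H1H2Mo replicate 1 its log2 fold change was 0.67 (edgeR adjusted p = 0.13). kmt2c had 128.3 and 46.0 CPM in H1H2Mo caps and 36.6 and 48.4 CPM in CoMo caps, with replicate 2 of H1H2Mo inside the CoMo range. kdm5a, an eraser of this mark, had 177.2 and 150.3 CPM in H1H2Mo caps and 68.4 and 92.2 CPM in CoMo caps, a log2 fold change of 1.03 (edgeR adjusted p = 0.052). DESeq2 called both kmt2d and kdm5a (DESeq2 adjusted p = 0.016 and 0.020), as did edgeR with RLE normalization (both 0.044), but neither was called by edgeR without CoMo replicate 1 (0.45 and 0.44) or CoMo replicate 2 (0.25 and 0.19). setd1b had a log2 fold change of 0.59 and kmt2e, a SET domain gene with no established H3K4 activity, one of 0.06. Summed over the 7 genes, the level was 1101 and 609 CPM in H1H2Mo caps and 339 and 454 CPM in CoMo caps.

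Among the 6 genes of H3K9 and H3K36 methylation, 1 was called (16.7%, against 16.5% of all genes). Its symbol came from the list for this comparison. setd5 (gene21303, chromosome 4), a SET domain gene mutated in intellectual disability in humans, had 296.4 and 214.5 CPM in H1H2Mo caps, against 61.7 and 103.7 CPM in CoMo caps. It was 3.09-fold higher in H1H2Mo (log2 fold change 1.63, standard error 0.37, edgeR adjusted p = 0.010), and the groups did not overlap. Without CoMo replicate 1 its edgeR adjusted p was 0.27 and without CoMo replicate 2 it was 0.086. setd2, which encodes the enzyme that trimethylates H3K36, had 57.1 and 22.3 CPM in H1H2Mo caps and 15.3 and 16.8 CPM in CoMo caps (log2 fold change 1.31, edgeR adjusted p = 0.054). setdb1, an H3K9 methyltransferase that silences repeats, had 55.0 and 50.2 CPM in H1H2Mo caps and 19.4 and 31.4 CPM in CoMo caps (log2 fold change 1.05, edgeR adjusted p = 0.057). Both were called with RLE normalization (edgeR adjusted p = 0.044 and 0.048) and by DESeq2 (DESeq2 adjusted p = 0.025 and 0.030), and neither with the stricter default filter of edgeR (edgeR adjusted p = 0.069 and 0.0502), when replicate numbers formed a block (both 0.061), without CoMo replicate 1 (0.35 and 0.45) or without CoMo replicate 2 (0.27 and 0.13). Without H1H2Mo replicate 1 the log2 fold change of setd2 was 0.48 (edgeR adjusted p = 0.42). The groups overlapped for the heterochromatin protein gene cbx5, which had 94.0 and 202.5 CPM in H1H2Mo caps and 109.2 and 82.5 CPM in CoMo caps. The H3K9 demethylase genes kdm4b and kdm3a had log2 fold changes of 0.03 and -0.02.

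None of the 4 genes of the Polycomb system was called by edgeR or by DESeq2, and none had an unadjusted p under 0.05. EZH2, EED and SUZ12 form the core of Polycomb repressive complex PRC2, which trimethylates H3K27. suz12 had the smallest p of the group, with 118.9 and 132.6 CPM in H1H2Mo caps and 59.7 and 96.7 CPM in CoMo caps (log2 fold change 0.68, standard error 0.34, edgeR adjusted p = 0.21). ezh2 had 251.9 and 525.3 CPM in H1H2Mo caps and 251.1 and 295.5 CPM in CoMo caps, and H1H2Mo replicate 1 was thus within the CoMo range. The log2 fold change was 0.51 both for ezh2 and for eed. It was 0.05 for the H3K27 demethylase gene kdm6a. Of the 5 PRDM, SMYD and other SET domain genes (prdm15, smyd4, prdm4, setd9 and prdm6), likewise none was called by either tool or had an unadjusted p under 0.05, and their log2 fold changes lay between -0.27 for prdm6 and 0.59 for prdm15. The highest of these was prdm15, with 100.9 and 86.3 CPM in H1H2Mo caps and 56.8 and 67.5 CPM in CoMo caps (standard error 0.32, edgeR adjusted p = 0.24).

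Of the 7 genes of histone acetylation, 2 were called (28.6%, against 16.5% of all genes), kat6a higher and kat2b lower. kat2b had its symbol from the list for this comparison, where 98.9% of genes were called. KAT2B (PCAF) and KAT2A (GCN5) are alternative catalytic subunits of the SAGA and ATAC coactivator complexes. kat2b (gene18082, chromosome 6) had 10.1 and 12.4 CPM in H1H2Mo caps, against 41.2 and 57.9 CPM in CoMo caps. It was 4.40-fold lower in H1H2Mo (log2 fold change -2.14, standard error 0.36, edgeR adjusted p = 0.0014), and lost its call only without CoMo replicate 2 (edgeR adjusted p = 0.064). Its paralog kat2a had a log2 fold change of 0.19. Within a library there were 0.185 and 0.178 kat2b reads per kat2a read in H1H2Mo caps, against 0.716 and 1.12 in CoMo caps. The exact two-sided permutation test on this ratio gave the smallest possible p of 0.333. Of the stranded reads over kat2b, 12.5% and 14.9% lay on the other strand in H1H2Mo caps, which were 40 and 39 reads. In CoMo caps the share was 1.60% and 3.64%, which were 11 and 96 reads. These reads were not counted. The share depends on the sense reads too, so it does not by itself show more reads on the other strand.

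The MYST family acetyltransferase gene kat6a (gene1975, chromosome 3) had 158.3 and 70.9 CPM in H1H2Mo caps and 35.0 and 56.6 CPM in CoMo caps. It was called higher with a log2 fold change of 1.32 (standard error 0.41, edgeR adjusted p = 0.045). The call was lost without H1H2Mo replicate 1 (0.64, edgeR adjusted p = 0.22), without CoMo replicate 1 (edgeR adjusted p = 0.42), without CoMo replicate 2 (0.17) and with the stricter default filter of edgeR (0.059). phf20, a subunit of the MOF acetyltransferase complex, had a log2 fold change of 0.91 (edgeR adjusted p = 0.089). The remaining genes of the group, kat8, ing4 and brd1, had log2 fold changes between -0.17 and 0.08, and their groups overlapped.

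Of the 4 genes of histone deacetylation, hdac9 was called (25%, against 16.5% of all genes). It had its symbol from the list for this comparison, and it had the fewest reads of the genes called. HDAC9 and HDAC4 are class IIa deacetylases. hdac9 (gene33938, chromosome 6) had 0.828 and 0.614 CPM in H1H2Mo caps, from 23 and 11 reads, against 6.52 and 3.98 CPM in CoMo caps, from 107 and 175 reads. It was 7.15-fold lower in H1H2Mo (log2 fold change -2.84, standard error 0.61, edgeR adjusted p = 0.0066). Without CoMo replicate 1 the edgeR adjusted p was 0.17, and without CoMo replicate 2 it was 0.063. hdac4 had 49.96 and 36.4 CPM in H1H2Mo caps and 21.5 and 22.9 CPM in CoMo caps, and its log2 fold change of 0.96 did not pass the test of edgeR (edgeR adjusted p = 0.070) but passed that of DESeq2 (DESeq2 adjusted p = 0.044). ing2, a reader of methylated H3K4 in the Sin3 deacetylase complex, had a log2 fold change of 0.64. The related ing1 had 24 to 86 sense reads per library and a log2 fold change of -0.42. For ing1, 92.9% and 46.7% of the stranded reads in H1H2Mo caps and 48.2% and 66.3% in CoMo caps lay on the other strand, and with both strands counted its log2 fold change was 1.27.

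None of the 3 bromodomain and PHD finger readers outside the enzyme complexes above was called by edgeR or by DESeq2, while 2 had an unadjusted p under 0.05. phf13, a reader of H3K4me3, had 96.5 and 76.9 CPM in H1H2Mo caps, against 58.1 and 40.9 CPM in CoMo caps (log2 fold change 0.81, standard error 0.33, edgeR adjusted p = 0.12). The groups did not overlap. brd2, a BET family reader of acetylated histones, had a log2 fold change of 0.60. brd9, a subunit of the non-canonical BAF complex, had 46.1 and 58.5 CPM in H1H2Mo caps and 95.6 and 81.7 CPM in CoMo caps (log2 fold change -0.76, edgeR adjusted p = 0.13).

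Of the 9 identifiers of chromatin remodellers, 2 were called (22.2%, against 16.5% of all genes). Both were higher (5.83% of all genes) and had their symbol from the list for this comparison, where 98.9% of genes were called. SMARCA5 (SNF2H) is the ATPase of the ISWI complexes, which space nucleosomes. smarca5 (gene1017, chromosome 1) had 93.0 and 189.8 CPM in H1H2Mo caps, against 29.7 and 25.8 CPM in CoMo caps. It was 5.10-fold higher in H1H2Mo (log2 fold change 2.35, standard error 0.39, edgeR adjusted p = 0.0014), the largest rise among the chromatin genes. Without H1H2Mo replicate 2 the log2 fold change of smarca5 was 1.75. Without CoMo replicate 1 its edgeR adjusted p was 0.070 and without CoMo replicate 2 it was 0.086. chd7, the remodeller mutated in CHARGE syndrome in humans (gene32235, chromosome 6), had 659.5 and 802.3 CPM in H1H2Mo caps and 264.0 and 329.8 CPM in CoMo caps. It was 2.46-fold higher in H1H2Mo (log2 fold change 1.30, standard error 0.36, edgeR adjusted p = 0.027), a call that was lost without CoMo replicate 1 (edgeR adjusted p = 0.41) or CoMo replicate 2 (0.22).

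Other CHD genes had negative values and were not called by edgeR. The identifiers named chd9 had log2 fold changes of -1.20 (gene14284, edgeR adjusted p = 0.075) and -0.94 (gene12764, edgeR adjusted p = 0.12), and for both the H1H2Mo libraries lay below the CoMo libraries. DESeq2 called gene14284 lower (DESeq2 adjusted p = 0.044). Whether they are separate genes or pieces of 1 gene model is not given in the sources used here. chd2 had 35.0 and 49.5 CPM in H1H2Mo caps and 83.2 and 66.9 CPM in CoMo caps (log2 fold change -0.83, edgeR adjusted p = 0.11), while chd6 and chd8 had log2 fold changes of -0.42 and -0.15. smarcc2, a core subunit of BAF complexes, had a log2 fold change of 0.88 (edgeR adjusted p = 0.084) and the remodeller smarcad1 one of 0.48.

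**Figure D3:**
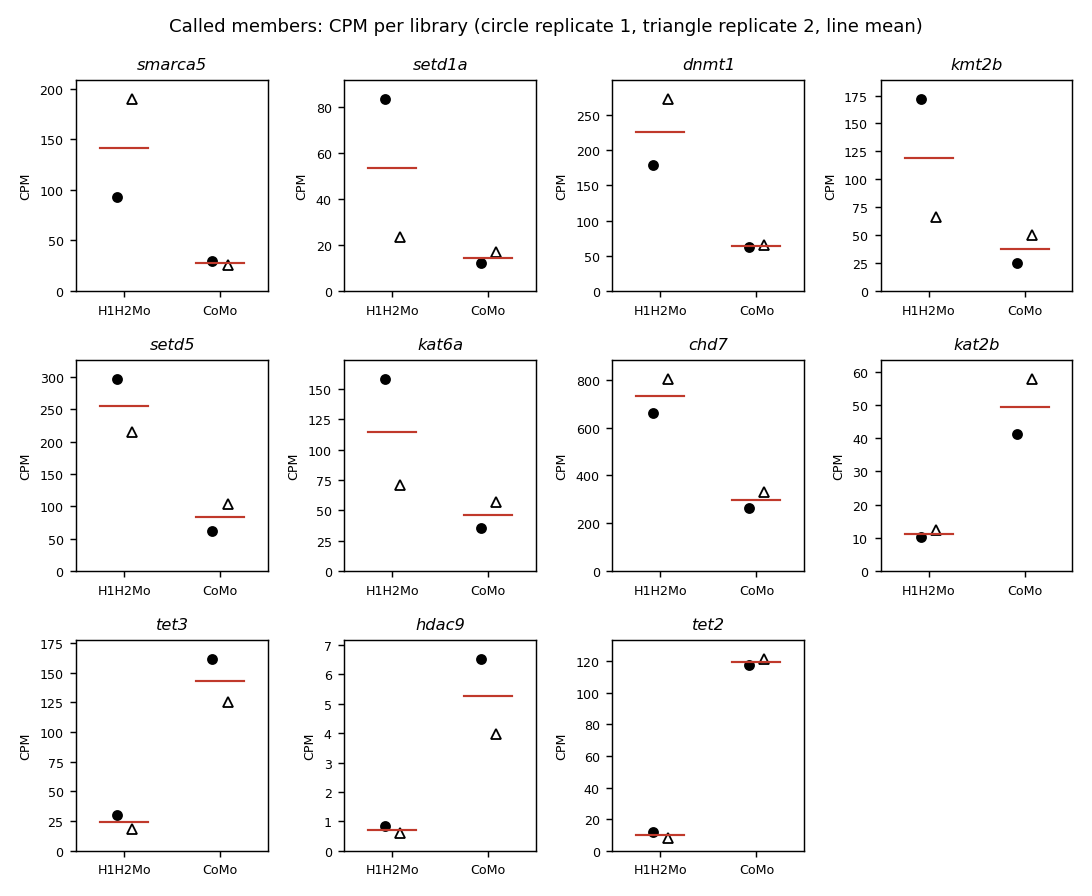
CPM in each library of the 11 called chromatin genes other than kmt5c, in order of fold change from smarca5 to tet2, with H1H2Mo left of CoMo, circles for replicate 1, triangles for replicate 2 and a line at the mean. The H1H2Mo and CoMo libraries do not overlap for any of them, but for setd1a, kmt2b and kat6a H1H2Mo replicate 2 lies much closer to the CoMo libraries than replicate 1 does.

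The H1H2Mo replicates differed more than 2-fold for 9 chromatin genes (17.3%), against 26.2% of all genes with reads in both libraries and 16.4% of those averaging 50 counts or more. Replicate 1 was the higher for 6 of them (kat6a, prdm4, setd2, kmt2b, kmt2c and setd1a), and replicate 2 for 3 (cbx5, ezh2 and smarca5). All 3 called genes that were named outside the list for this comparison were among the 6. Some read pairs mapped but lay on no annotated exon of the counted strand. They made up 19.2% of all pairs in H1H2Mo replicate 1 and 15.3% in replicate 2, and 13.6% and 15.8% in the CoMo libraries. The part of this share in the values above was not tested. Leaving out 1 library leaves 1 in its condition, so the calls then rest on the spread of the other pair. Far fewer of all genes tested were called when a CoMo library was left out, so a call lost there is not particular to that gene. The median log2 fold change of the 52 genes was 0.41 without H1H2Mo replicate 1 and 0.17 without replicate 2. Over all genes tested it was -0.041 and -0.0033. For the 52 genes it was 0.40 without CoMo replicate 1 and 0.44 without CoMo replicate 2, against 0.10 and 0.099. In these fits the condition with 1 library is assumed to vary like the other. The 12 called genes kept their direction in every such fit and with every other normalization, filter and count column that was tried.

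**Figure D4:**
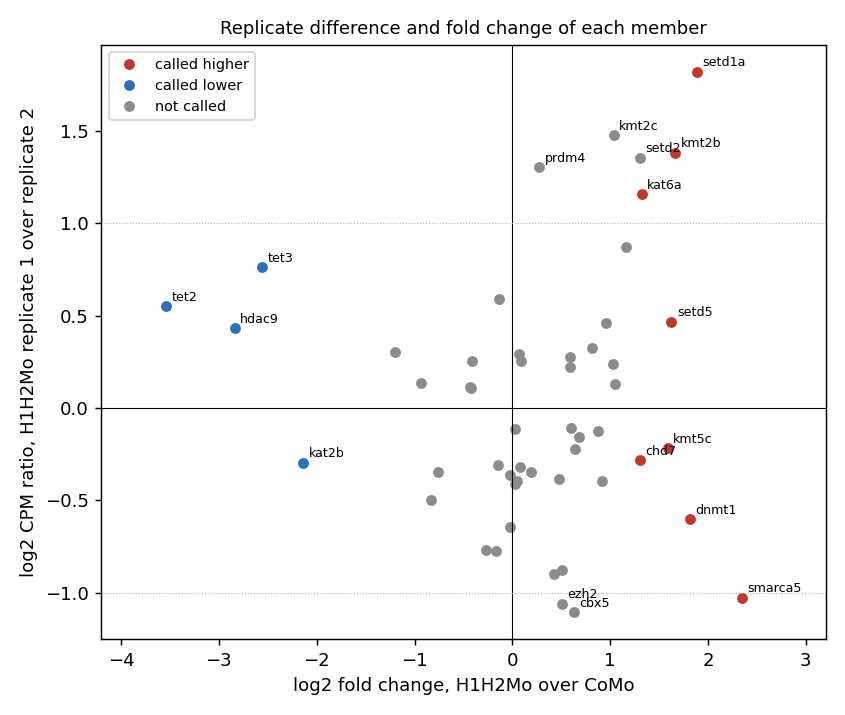
Log2 CPM ratio of H1H2Mo replicate 1 over replicate 2 (vertical) against the log2 fold change of H1H2Mo over CoMo (horizontal), 1 point per chromatin gene, coloured by call, with dotted lines at a 2-fold difference between replicates. Above the upper line lie 6 genes, setd1a highest with a log2 ratio of 1.82, and below the lower line lie cbx5, ezh2 and smarca5.

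Genes that work with these enzymes were taken from a further list of 68 chromatin genes in 8 groups. Of these, 17 (25%) were called, against 16.5% of all genes tested. In all, 11 were higher (background 5.83%) and 6 lower (background 10.7%), and the median log2 fold change was 0.42, against 0.05 over all genes. As before, the source of the symbol mattered. All 13 genes named through the list for H1H2Mo against CoMo were called, and 4 of the other 55 were (7.27%, against 12.6% of all named genes outside that list).

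Of 5 genes for proteins that bind methylated lysines, 2 were called (40%, against 16.5% of all genes), 1 higher and 1 lower. Both, tp53bp1 and l3mbtl3, had their symbol from the list for this comparison, where 98.9% of genes were called. tp53bp1 encodes the DNA damage factor 53BP1, which binds H4K20me2. It had 105.9 and 125.1 CPM in H1H2Mo caps, against 23.5 and 28.4 CPM in CoMo caps. With a log2 fold change of 2.15 (standard error 0.33, edgeR adjusted p = 0.00083), tp53bp1 was called higher. It lost its call only without CoMo replicate 1 (edgeR adjusted p = 0.070). l3mbtl3, an MBT repeat protein, had 8.07 and 14.2 CPM in H1H2Mo caps and 48.0 and 36.5 CPM in CoMo caps (log2 fold change -1.92, standard error 0.38, edgeR adjusted p = 0.0046), and lost its call without either CoMo library (0.13 and 0.060). The related l3mbtl1 had 13.0 and 9.54 CPM in H1H2Mo caps and 3.41 and 6.49 CPM in CoMo caps. Its log2 fold change of 1.17 went the other way and was not called (edgeR adjusted p = 0.0998). orc1, whose BAH domain binds H4K20me2, had a log2 fold change of 0.37 (edgeR adjusted p = 0.54). In the group of lysine and arginine methylation, 3 of 9 genes were called (33.3%, against 16.5% of all genes). All 3 were higher (5.83% of all genes) and had their symbol from the list for this comparison, where 98.9% of genes were called. These were the arginine methyltransferase gene prmt5 (log2 fold change 1.94, edgeR adjusted p = 0.0036), the COMPASS subunit gene ash2l (1.54, 0.0070) and the H3K9 methyltransferase gene ehmt1 (1.75, 0.010). Without CoMo replicate 1 the edgeR adjusted p of prmt5, ash2l and ehmt1 was 0.075, 0.097 and 0.27, and without CoMo replicate 2 it was 0.11, 0.14 and 0.11. None of 3 further Jumonji genes was called by edgeR, nor did any have an unadjusted p under 0.05.

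Subunits of remodelling complexes moved in both directions, with 4 of 18 called higher (5.83% of all genes) and 3 lower (10.7% of all genes). bptf, baz1b, arid1a, baz2b and arid1b had their symbol from the list for this comparison. arid1a, a relative of arid1b, had 270.3 and 87.1 CPM in H1H2Mo caps and 40.9 and 60.4 CPM in CoMo caps. It was called higher (log2 fold change 1.82, edgeR adjusted p = 0.019), with H1H2Mo replicate 1 far above replicate 2. Its values with a library left out are not given here. The other 6 called genes follow. bptf, the largest subunit of the ISWI complex NURF, had 327.8 and 155.7 CPM in H1H2Mo caps, against 38.0 and 73.8 CPM in CoMo caps (log2 fold change 2.11, edgeR adjusted p = 0.0059). baz1b, which pairs with SMARCA5 in the WICH complex, had a log2 fold change of 1.72 (edgeR adjusted p = 0.0068) and hells, a remodeller needed for DNA methylation in mammals, one of 1.34 (0.017). In contrast, baz2b had 7.13 and 5.47 CPM in H1H2Mo caps and 40.9 and 36.4 CPM in CoMo caps (log2 fold change -2.61, edgeR adjusted p = 0.00046). arid1b, a subunit of BAF complexes, had 7.89 and 6.86 CPM in H1H2Mo caps and 29.2 and 16.3 CPM in CoMo caps (log2 fold change -1.62, edgeR adjusted p = 0.016). ruvbl2, an ATPase shared by several complexes, was also lower (log2 fold change -1.37, edgeR adjusted p = 0.039). Of these 6 genes, only baz2b kept its call without CoMo replicate 1 (edgeR adjusted p = 0.033) and without CoMo replicate 2 (0.028). ruvbl2 also lost its call without H1H2Mo replicate 1 (edgeR adjusted p = 0.065) and with the default filter of edgeR (0.051).

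In the other groups, the share called was 1 of 6 Polycomb genes (16.7%) and 2 of 15 genes of acetylation and deacetylation (13.3%). It was 2 of 9 histones and chaperones (22.2%), against 16.5% of all genes, and none of 3 further genes of DNA methylation was called. The called genes asxl1, h1f0 and h2afy had their symbol from the list for this comparison, where 98.9% of genes were called. asxl1, a Polycomb-associated gene, was higher (log2 fold change 1.60, edgeR adjusted p = 0.0054). So were brpf1, the scaffold of KAT6 complexes (1.27, 0.021), and supt3h, a SAGA subunit (1.58, 0.036). None of these 3 was called without CoMo replicate 1 (edgeR adjusted p = 0.18, 0.19 and 0.36) or without CoMo replicate 2 (0.12, 0.21 and 0.079), and supt3h was not called without H1H2Mo replicate 1 either (0.11). h1f0, the linker histone of non-dividing cells, had 11.0 and 11.1 CPM in H1H2Mo caps, against 126.9 and 95.5 CPM in CoMo caps (log2 fold change -3.33, edgeR adjusted p = 8.2e-05). h2afy, the histone variant macroH2A, had 1.19 and 1.95 CPM in H1H2Mo caps and 18.8 and 15.6 CPM in CoMo caps (log2 fold change -3.47, edgeR adjusted p = 0.00036). Both of these calls held without any 1 library.

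**Figure D5:**
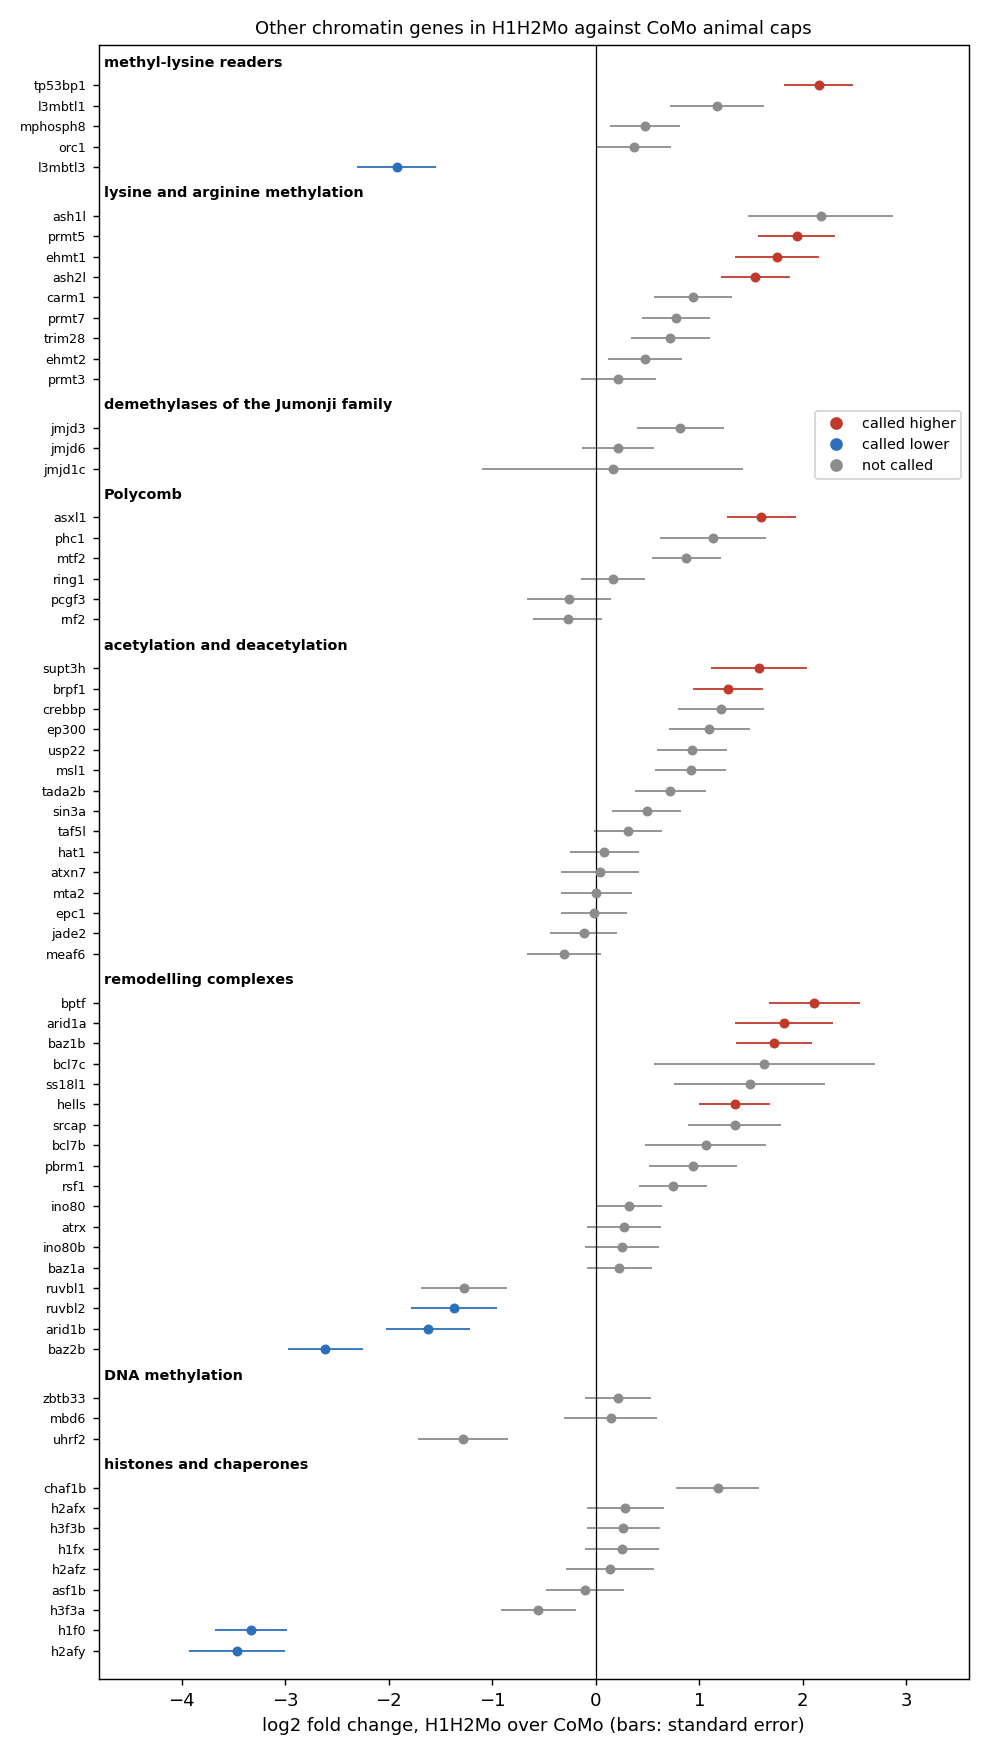
Log2 fold change (H1H2Mo over CoMo) of 68 further chromatin genes in 8 groups, with standard errors as bars. Red marks the 11 genes called higher and blue the 6 called lower, with tp53bp1 at 2.15 and h2afy at -3.47.

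Cell type markers moved between the same libraries. Of all genes tested, 10.7% were called lower in H1H2Mo and 5.83% higher. Every marker called lower had its symbol from the list for this comparison, where 98.9% of genes were called and 71% were lower. Being called was thus close to given for these markers. The same holds for zic1, zic2 and foxa4, called higher, but not for dmrt2. Called lower in H1H2Mo were 4 of 8 genes of multiciliated cells, 4 of 8 of ionocytes (1 was higher), 3 of 3 of small secretory cells, 2 of 2 of goblet cells and 3 of 7 of epidermis. Of 6 neural and neural crest genes tested, 2 were higher and 3 lower, and of 4 mesoderm and endoderm genes 1 was higher. The summed level of these 4 was 59.8 and 8.76 CPM in H1H2Mo caps and 8.47 and 15.3 CPM in CoMo caps, and each of the 4 was more than 2-fold higher in H1H2Mo replicate 1 than in replicate 2. H1H2Mo replicate 1 is also the library in which setd1a, kmt2b and kat6a were highest, and the part of these cells in their levels was not tested. The regulators foxj1, rfx2, foxn4 and mci-like of multiciliated cells were not called, with log2 fold changes of -0.88, -0.40, -0.00066 and 1.40. The summed level of the multiciliated cell genes was 1606 and 2230 CPM in H1H2Mo caps and 4725 and 5866 CPM in CoMo caps. Of this, tubb4b alone had 1107 and 1185 CPM in H1H2Mo caps and 3198 and 4368 CPM in CoMo caps. The summed level of the small secretory cell genes was 21.1 and 37.5 CPM in H1H2Mo caps and 1509 and 1087 CPM in CoMo caps. That of the goblet cell genes was 189 and 62.5 CPM in H1H2Mo caps and 961 and 446 CPM in CoMo caps. The part of these cell types in the levels of tet2, tet3, kat2b, hdac9 and the other chromatin genes was not tested.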

How the data were processed

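RNA-seq libraries of X. tropicalis ACs at NF16 (2 H1H2Mo, 2 CoMo) were used. The authors aligned paired reads with STAR 2.7.1a to gene models converted with Cufflinks and deposited raw counts per gene, without normalization. Reverse-strand counts were used, since the kit is directional and 97.49% to 98.16% of stranded reads lay there. From these, edgeR 4.0.16 in R 4.3.3 (TMM, quasi-likelihood test) compared H1H2Mo with CoMo, over genes that had 1 read or more in 75% of the samples. The adjusted p (Benjamini-Hochberg) had to be under 0.05. Standard errors are the log2 fold change over the square root of F. DESeq2 1.42.0 was an alternative, as were the replicate block, RLE and upper-quartile normalization, edgeR's default filter, no filter, unstranded counts, an adjusted p under 0.01 and leaving out each library. The tests were tested on simulated data.

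The count files hold identifiers only. Symbols came from the study's gene lists, of which the part at hand was used; columns of the authors' own fold changes and p-values in them were not used. RefSeq names (UCB_Xtro) matched 51 of the 52 genes. Another 2 genes with these stems, and a gene of the further list, are not reported here. The genes and lists were chosen with earlier results of these data known. Named with full values are the targets, setd8, phf8, each called gene and the gene with the smallest p in each role. From the further lists, at most 3 called genes per list and direction were chosen, and arid1a was added to these. Other genes are given with fewer values. Nothing in the labels says which cultures or clutches the replicates came from, so p-values may measure technical spread. Same-numbered samples deviated with a correlation of -0.21, so the numbers were not used as pairs. Replicate counts differed with a chi-square of 134 per degree of freedom for H1H2Mo and 94.2 for CoMo, so neither pair is a repeat deposit. Precision is limited by the 2 libraries in each condition and, for genes with few reads, by depth.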

Additional observations from a re-analysis of the deposited data

How the results depend on the processing

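With the replicate number as a block, 3280 genes and 13 chromatin genes were called, among them all 12 and kmt2d (log2 fold change 1.11, edgeR adjusted p = 0.045), and 21 of the further 68 genes; samples that share a number did not deviate together. With crossed pairs, chosen after seeing the data, 4843 genes were called, 22 chromatin genes, 13 of those named outside the list for H1H2Mo against CoMo and 30 of the further genes. At an adjusted p under 0.01 these counts were 1543, 7, 0 and 10. The count of 3 outside that list was 7 with RLE or upper-quartile normalization, 8 without a filter, 9 with DESeq2 and 5 with unstranded counts. Over these settings and edgeR's default filter, 12 to 18 of all chromatin genes were called. The median log2 fold change of the chromatin genes was 0.53 with upper-quartile normalization, where that over all genes tested was 0.13. Leaving out 1 library gave 542 to 3978 genes called in all, 2 to 20 chromatin genes, 0 to 11 outside the list and 3 to 29 of the further genes, a median of 0.17 to 0.44 and a log2 fold change of kmt5c of 1.47 to 1.75; with either CoMo library left out the spread comes from the H1H2Mo pair alone. suv420h1 was lower in H1H2Mo and not called under every alternative run. Reversals were limited to genes that were not called. With upper-quartile normalization the log2 fold change was 0.060 for kdm3a and 0.057 for setd8, with edgeR's default filter 0.017 for kdm3a and 0.0085 for setd8, and with unstranded counts -0.015 for kdm4b and 1.27 for ing1. The causes were not tested. The ranges over the left-out libraries that crossed 0 were kmt2e -0.083 to 0.21, cbx5 -0.020 to 1.09, kdm4b -0.066 to 0.15, kdm3a -0.20 to 0.16, phf8 -0.19 to 0.22, setd8 -0.37 to 0.35, smyd4 -0.079 to 0.82, prdm4 -0.51 to 0.78, prdm6 -0.97 to 1.01, setd9 -0.45 to 0.13, ezh2 -0.11 to 0.95, kdm6a -0.15 to 0.25, chd8 -0.31 to 0.0037, brd1 -0.60 to 0.17, ing4 -0.079 to 0.24 and kat8 -0.040 to 0.21. Depth limits prdm6, setd9, ing1 and hdac9 most, which had under 50 reads in at least 1 library.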
